A study of Mus musculus with 14 samples.

Results

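The 5 genes described here are the transcripts of red blood cells that were measured in mouse hind limb muscle: the adult alpha globin genes Hba-a1 and Hba-a2, the adult beta globin genes Hbb-bs and Hbb-bt, and Alas2. They were chosen by name, as 5 of the 49585 genes in the deposited expression tables, and all 5 passed the filter on low values, which asked for 1 RPM or more in 3 or more libraries. RPM is the reads of a gene per 1000000 reads on all genes of that library. Hind limb skeletal muscle was sampled from wild type (WT) and from a Myf6 knockout (KO), each uninjured and injured, which makes 4 groups of 3 RNA libraries. Myf6 (MRF4) is a muscle transcription factor, and the series asks how it bears on the muscle stem cell pool. No group differed by any other stated agent. The kind of injury, the time after it, the strain, the age and the design of the knockout allele are not given in the sources used here. Libraries are labelled by a number with L (uninjured) or R (injured), and a number occurs once with each letter. If a number names an animal, the L and R libraries of that number are not independent. WT and KO carry different numbers, so genotype cannot be told apart from a litter, a strain background or a batch that differs with it. Nothing in the labels says that the libraries of a group came from separate animals, so p-values measure the spread between these libraries.

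Haemoglobin of adult red blood cells is a tetramer of alpha and beta globin chains, each holding a haem group. Red cells lose their nucleus while they mature, and reticulocytes, the youngest cells in the circulation, still carry globin RNA, so whole tissue that was not cleared of blood yields globin reads. Alas2 encodes the erythroid form of 5-aminolevulinate synthase, which catalyses the first step of haem synthesis, and its relative Alas1 serves the other tissues. Globin and Alas2 promoters are known targets of GATA1 and KLF1, factors of the red cell lineage. In bulk tissue, fewer red cells and less RNA per cell cannot be told apart.

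The genes lie at 3 loci, given here on GRCm38.p6 from RefSeq. Hba-a1 is at chr11:32283672-32284486 and Hba-a2 at chr11:32296492-32297310, both on the plus strand. Hbb-bs is at chr7:103826523-103827928 and Hbb-bt at chr7:103812524-103813923, both on the minus strand. Alas2 is at chrX:150547417-150570622 on the plus strand. All 5 matched an entry of the RefSeq promoter table, which covers 250 bases before the start site to 50 after it. The windows of 4 genes are shown because their shared layout sets the globins beside Alas2 and sets Hbb-bt beside Hbb-bs, the pair whose ratio differs between the genotypes below. The Hba-a2 window is not repeated, since 297 of its 300 bases are the Hba-a1 window shifted by 3 bases. Capitals mark the GATA box (letters GATAA), the CACCC box (CACCC), the CCAAT box (CCAAT) and the TATA box (TATAA) on either strand. A match on the other strand appears as its reverse complement, and neighbouring or overlapping matches run together.
Hba-a1 promoter, chr11:32283422-32283721, plus strand: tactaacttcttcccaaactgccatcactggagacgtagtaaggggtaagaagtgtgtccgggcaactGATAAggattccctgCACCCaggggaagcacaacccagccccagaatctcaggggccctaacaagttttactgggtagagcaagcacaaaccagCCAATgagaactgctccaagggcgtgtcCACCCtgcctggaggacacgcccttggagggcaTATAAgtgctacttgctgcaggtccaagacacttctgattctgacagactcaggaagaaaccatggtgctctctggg
Hbb-bs promoter, chr7:103827879-103828178, minus strand: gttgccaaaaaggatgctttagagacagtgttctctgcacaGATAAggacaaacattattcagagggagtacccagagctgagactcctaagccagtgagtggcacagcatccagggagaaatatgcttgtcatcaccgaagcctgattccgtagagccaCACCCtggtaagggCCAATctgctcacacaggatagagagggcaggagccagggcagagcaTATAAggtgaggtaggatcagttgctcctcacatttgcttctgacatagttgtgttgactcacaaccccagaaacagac
Hbb-bt promoter, chr7:103813874-103814173, minus strand: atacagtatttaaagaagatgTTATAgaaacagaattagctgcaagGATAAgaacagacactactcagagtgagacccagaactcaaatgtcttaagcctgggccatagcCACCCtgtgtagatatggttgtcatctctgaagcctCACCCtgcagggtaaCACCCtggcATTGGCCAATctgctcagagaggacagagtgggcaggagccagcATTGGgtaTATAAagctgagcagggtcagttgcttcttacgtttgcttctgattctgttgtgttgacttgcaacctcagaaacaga
Alas2 promoter, chrX:150547167-150547466, plus strand: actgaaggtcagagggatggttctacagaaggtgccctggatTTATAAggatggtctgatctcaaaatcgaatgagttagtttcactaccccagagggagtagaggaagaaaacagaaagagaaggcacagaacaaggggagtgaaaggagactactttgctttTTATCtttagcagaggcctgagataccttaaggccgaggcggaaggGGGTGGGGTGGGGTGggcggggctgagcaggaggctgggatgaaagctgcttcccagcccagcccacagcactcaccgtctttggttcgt

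The 4 globin windows each held all 4 boxes, as did 1.51% of 32851 promoter windows of the same length. Singly, the GATA box occurred in 25.4%, the CACCC box in 57.5%, the CCAAT box in 37.4% and the TATA box in 24.9% of these windows. Hbb-bs held 1 CACCC box and 1 CCAAT box, and Hbb-bt held 3 of each, 2 of its CCAAT boxes being on the other strand. The Hbb-bs and Hbb-bt windows were identical at 78.2% of aligned bases, a share that leaves out 22 gap bases. Hbb-bs and Alas2 gave 76.2%, leaving out 112 gap bases, so the share alone does not set the beta pair apart. With the start site counted as base 0, a TATA box began at -27 (Hba-a1), -30 (Hba-a2), -29 (Hbb-bs) and -28 (Hbb-bt). The Alas2 window held 1 GATA box and 3 CACCC boxes, all on the other strand, a pair of overlapping TATA boxes between -208 and -203, and no CCAAT box. The E-box letters CANNTG, which can overlap the other motifs and which are the type of site that muscle factors such as Myf6 bind, occurred in the 4 globin windows, not in the Alas2 window, and in 72.3% of all windows. A match is a run of letters and not a measured binding site.

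**Figure D1:**
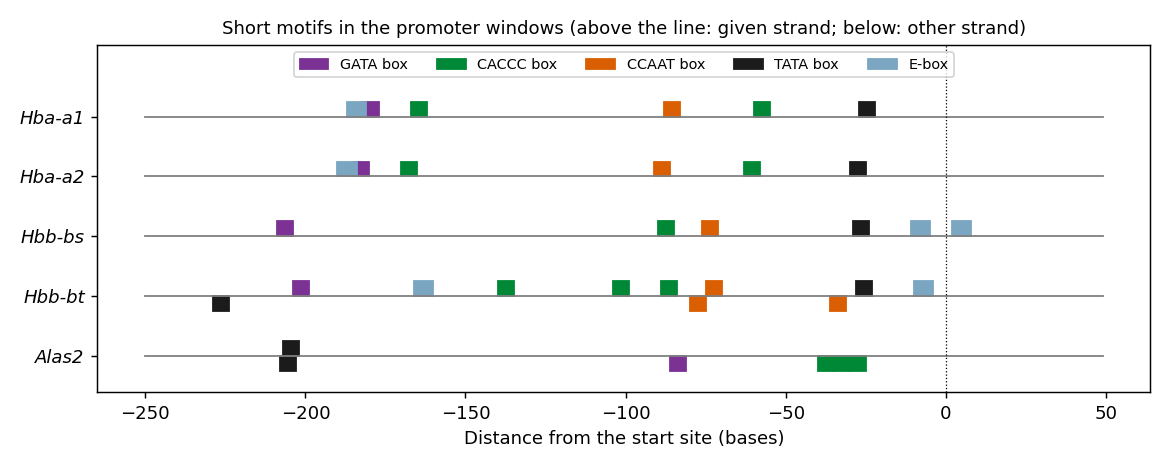
Positions of short motifs in the 5 promoter windows, with distance from the start site in bases on the x axis; boxes above a line are on the given strand and boxes below it on the other strand. The 4 globin genes show a TATA box that begins between -30 and -27, and Alas2 shows 3 CACCC boxes on the other strand between -40 and -26.

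Library depth ranged from 1880087 reads (WT uninjured replicate 2) to 49392472 (KO injured replicate 3). At 3 reads, the detection floor was 0.0607 to 1.60 RPM. Mitochondrial genes took 3.63 to 23.16% of reads, with the highest share in KO injured replicate 2. That library also stood apart in endothelial genes, whose summed level was 714 RPM. Myf6 itself was at 25.0 to 120.7 RPM in the 6 WT libraries and 1.86 to 3.46 RPM in the 6 KO libraries. The 8 skeletal muscle genes were abundant in every library. Their summed level was 112618 to 123752 RPM in uninjured WT and 164643 to 176773 RPM in uninjured KO, without overlap, and 115059 to 147579 against 112038 to 160255 RPM with injury.

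The 4 globin genes together made up a small and variable part of the reads. Their summed level was 548.2, 333.0 and 388.6 RPM in the uninjured WT libraries (replicates 1, 2 and 3) and 197.7, 395.5 and 158.5 RPM in the uninjured KO libraries. In injured muscle it was 431.4, 164.9 and 321.7 RPM in WT and 148.6, 579.4 and 255.7 RPM in KO. The groups overlapped in both states, and the highest and the lowest library were both injured KO, 3.9-fold apart. Group means were 423 ± 112 (WT uninjured), 250.6 ± 127.04 (KO uninjured), 306 ± 134 (WT injured) and 328 ± 224 RPM (KO injured; SD, n = 3 each).

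**Figure D2:**
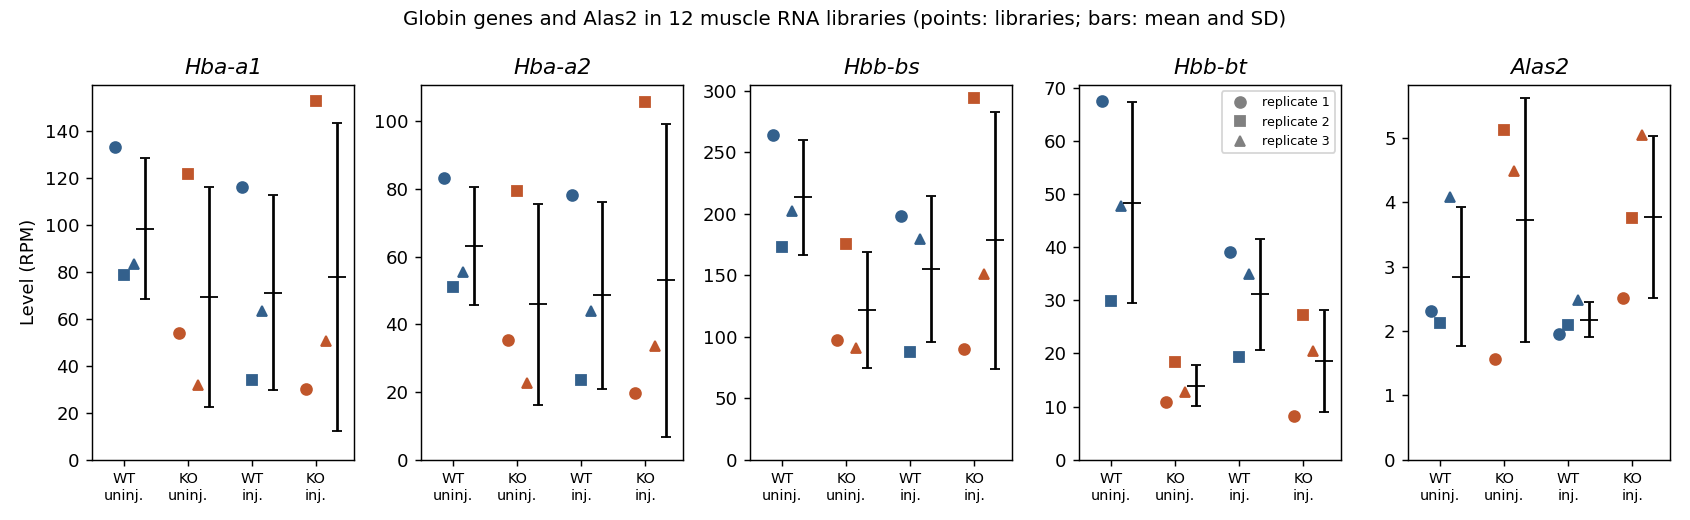
Level in RPM (y axis, linear from 0, a separate scale per gene) of each gene in the 12 libraries by group (x axis); symbols are replicates, blue is WT, orange is KO, and bars give the mean and SD of 3 libraries. Injured KO replicate 2 holds the highest value of Hba-a1, Hba-a2 and Hbb-bs (152.5, 105.8 and 293.8 RPM), while for Hbb-bt the 3 uninjured KO libraries (10.9 to 18.3 RPM) sit below the 3 uninjured WT libraries (29.8 to 67.6 RPM).

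The first comparison asked which of these transcripts differ between KO and WT in uninjured muscle. All 4 globin estimates were lower in KO and Alas2 was not, and Hbb-bt had the lowest estimate, but none passed the test. On log2(RPM + 1) with limma, 0 of the 5 genes had a Benjamini-Hochberg adjusted p under 0.05, against 0.281% of the 12460 genes tested. At an unadjusted p under 0.05 the count was 2 of 5 with limma, against 14.2% of all genes tested. At the adjusted threshold edgeR called 0 of the 5, against 0.441% of all genes. DESeq2 called 1, Hbb-bt, and 663 of 12450 genes (5.33%). The median change of the 5 genes was -0.67, and that of all genes tested was -0.18. The median of all genes moved to -0.08 with upper quartile scaling, to 0.00 with edgeR and to -0.32 when values were scaled to reads outside mitochondrial genes, and the direction of the 4 globins was negative under each of these. The summed level of the muscle genes, given above, was higher in every uninjured KO library, opposite to the globin estimates. Over the 12 libraries the r with the mean of the 5 genes was -0.80 for Ckm (muscle creatine kinase), -0.74 for Acta1 (skeletal actin) and -0.72 for Myh2 (a fast myosin). It was -0.72 for Tnnt3, -0.64 for Myh1, -0.57 for Actn3 and -0.45 for Mb. Myh4, the most abundant gene of the muscle list, had an r of only -0.11. The part of the muscle RNA share in the globin estimates was not tested.

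Hba-a1 and Hba-a2 encode the alpha chain. Hba-a1 was at 132.9, 78.7 and 83.3 RPM in uninjured WT and at 54.0, 121.8 and 31.8 RPM in uninjured KO. Hba-a2 followed the same order of libraries, with 83.3, 51.1 and 55.4 RPM in WT beside 35.4, 79.6 and 22.8 RPM in KO. KO replicate 2 was within the WT range for both genes, and the other KO libraries were below it. The changes were -0.67 ± 0.46 (SE) for Hba-a1 and -0.61 ± 0.44 for Hba-a2, with limma adjusted p of 0.550 and 0.574. They were -1.18 and -1.09 without KO replicate 2, -0.23 and -0.21 without KO replicate 3, -0.44 and -0.40 without WT replicate 1, and -0.10 and -0.07 with DESeq2, so their size rested on single libraries and on the scaling.

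Hbb-bs and Hbb-bt encode adult beta chains and belong to the s haplotype of the mouse beta globin locus, while strains with the d haplotype carry Hbb-b1 and Hbb-b2 in their place. Hbb-bs was at 264.3, 173.4 and 202.1 RPM in uninjured WT and at 97.5, 175.8 and 91.1 RPM in uninjured KO. KO replicate 2 was just above the lowest WT library, and the change was -0.85 ± 0.32 (limma adjusted p = 0.270), or -0.48 with DESeq2. Hbb-bt gave 67.6, 29.8 and 47.7 RPM in WT, beside 10.9, 18.3 and 12.7 RPM in KO. Every KO library was below every WT library, as for 15.5% of the genes tested, and the mean was 3.46-fold lower in KO (48.4 ± 18.9 against 14.0 ± 3.89 RPM, SD, n = 3 each).

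The Hbb-bt change was -1.68 ± 0.37 with a limma p of 0.00129 and an adjusted p of 0.0970, above the threshold. The exact two-sided permutation p was 0.1, the smallest that 3 libraries against 3 allow. The adjusted p was 0.0177 with DESeq2 on reads recovered from the RPM values and 0.0431 with limma after scaling to reads outside mitochondrial genes, an alternative chosen after seeing the data. That scaling called 1.6% of all genes. The authors' deposited table gives Hbb-bt a log2 change, WT over KO, of 1.49 with a q-value of 0.0671. Leaving out single libraries gave changes from -1.98 to -1.40 with adjusted p from 0.0608 to 0.599 (limma). The mitochondrial share was 13.8 to 22.3% in uninjured WT and 3.63 to 15.3% in uninjured KO, and its part in the result was not tested beyond that scaling.

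Alas2 was at 2.32, 2.13 and 4.08 RPM in uninjured WT and at 1.56, 5.12 and 4.49 RPM in uninjured KO. These levels rest on 4 to 124 reads in WT and 41 to 192 in KO. The groups overlapped and the change was 0.23 ± 0.45 (limma adjusted p = 0.855). It was -0.00083 without KO replicate 2 and 0.63 without KO replicate 1.

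The second comparison put KO beside WT in injured muscle. Here the alpha globins and Hbb-bs had estimates near 0, the Hbb-bt estimate was again lower and the Alas2 estimate was higher. With limma, 0 of the 5 passed, against 0.269% of 12625 genes, and 0 had an unadjusted p under 0.05, against 10.3%. Both edgeR and DESeq2 called 0 of the 5, and 0.261% and 3.39% of all genes. The median change of the 5 was -0.03 and that of all genes 0.01.

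Hba-a1 was at 115.9, 34.1 and 63.3 RPM in injured WT and at 30.2, 152.5 and 50.6 RPM in injured KO. Hba-a2 gave 78.2, 23.5 and 44.0 RPM in WT, beside 19.7, 105.8 and 33.8 RPM in KO. For both genes the KO libraries held the lowest and the highest value, and the estimates of -0.03 ± 0.65 and -0.06 ± 0.66 turned positive with edgeR and with DESeq2. Without KO replicate 2 they were -0.68 and -0.73 (limma adjusted p of 0.326 and 0.287).

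Hbb-bs was at 198.2, 87.9 and 179.5 RPM in injured WT and at 90.4, 293.8 and 151.0 RPM in injured KO, a change of 0.12 ± 0.48 that became -0.32 without KO replicate 2. Hbb-bt gave 39.1, 19.3 and 35.0 RPM in WT, beside 8.30, 27.2 and 20.4 RPM in KO. Its groups overlapped, with KO replicates 2 and 3 above WT replicate 2, and the change was -0.79 ± 0.46 (limma adjusted p = 0.589). It was -1.13 without KO replicate 2 (limma adjusted p = 0.0873) and -0.33 without KO replicate 1 (0.9999).

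Alas2 was at 1.95, 2.1 and 2.49 RPM in injured WT and at 2.52, 3.76 and 5.04 RPM in injured KO. Each KO value exceeded each WT value, the closest pair being 2.49 and 2.52 RPM, as for 8.29% of the genes tested in this state. The mean was 1.73-fold higher in KO, the change 0.56 ± 0.25 and the limma adjusted p 0.515.

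**Figure D3:**
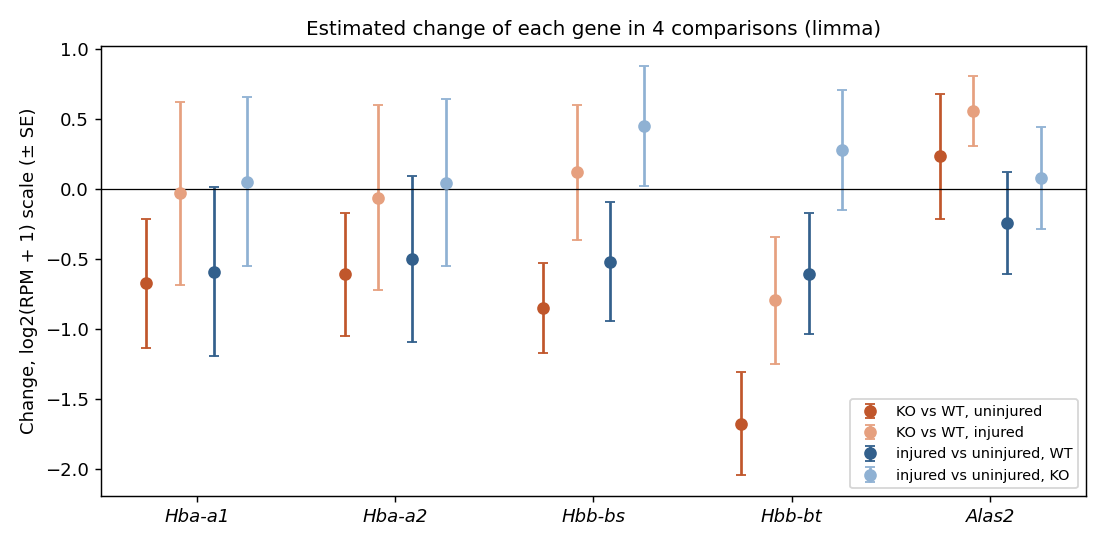
Estimated change on the log2(RPM + 1) scale (y axis) with its SE for each gene (x axis) in 4 comparisons. Hbb-bt in uninjured muscle has the lowest estimate (-1.68), and in injured KO against injured WT the estimates of Hba-a1, Hba-a2 and Hbb-bs lie between -0.06 and 0.12.

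The injury comparisons asked whether the level of these transcripts differed between the injured and the uninjured side. In WT all 5 estimates were negative and in KO all 5 were positive, with none past the threshold. limma called 0.0% of 13337 genes in WT, in KO and in the genotype by injury interaction, with 172, 468 and 208 genes at an unadjusted p under 0.05. edgeR and DESeq2 also called 0 genes in all 3.

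In WT the changes were -0.59 ± 0.60 (Hba-a1), -0.50 ± 0.59 (Hba-a2), -0.52 ± 0.43 (Hbb-bs), -0.60 ± 0.43 (Hbb-bt) and -0.24 ± 0.37 (Alas2). Each of the 4 globins was lower in the injured than in the uninjured library of all 3 WT numbers, and so was Alas2, with the summed globin level lower by 0.27 to 1.01 on the log2 scale. In KO the changes were 0.05 ± 0.60, 0.05 ± 0.59, 0.45 ± 0.43, 0.28 ± 0.43 and 0.08 ± 0.37 in the same order of genes. The KO numbers differed among themselves: all 4 globins were lower on the injured side in number 1 and higher in numbers 2 and 3. Over all genes the median change was 0.09 in WT and 0.29 in KO, and the latter was 0.05 with upper quartile scaling, under which Hba-a1, Hba-a2 and Alas2 in KO became negative.

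The interaction, the KO change minus the WT change, was positive for all 5 genes, from 0.32 (Alas2) to 0.97 (Hbb-bs), with a median of 0.64 against 0.20 for all genes. None passed (limma adjusted p of 0.9999 for each), so the injury change was not shown to differ between the genotypes. Without KO injured replicate 2, the estimates of Hba-a1 and Hba-a2 were -0.0019 and -0.12.

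Over the 6 numbers, the summed globin level of the uninjured library and that of the injured library had a Pearson r of 0.61 (exact permutation p = 0.2) and a Spearman rho of 0.77 (exact permutation p = 0.103). Without the 2 KO numbers farthest from the median the r was 0.60 (n = 4). This was the 1 relation of the kind computed, and it did not reach the 0.05 threshold.

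**Figure D4:**
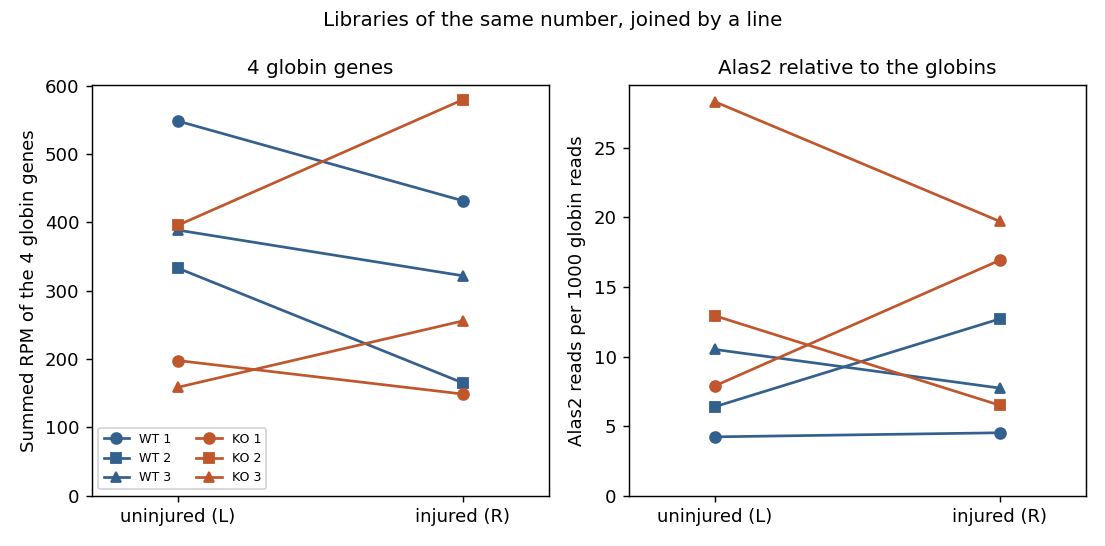
Summed RPM of the 4 globin genes (left) and Alas2 reads per 1000 globin reads (right), on linear y axes from 0, in the uninjured and the injured library of each number, joined by a line; blue is WT and orange is KO. The 3 WT lines of the globin sum and that of KO 1 slope downward, and those of KO 2 and KO 3 slope upward.

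Ratios between genes of 1 library do not depend on the total used for scaling. They are shares of reads and are not corrected for gene length. Hbb-bt took 20.4, 14.7 and 19.1% of the adult beta globin reads (Hbb-bs plus Hbb-bt) in uninjured WT and 10.0, 9.44 and 12.2% in uninjured KO. In injured muscle it took 16.5, 18.0 and 16.3% in WT and 8.41, 8.48 and 11.9% in KO. The share was below every WT value in each of the 6 KO libraries, and the highest KO share (12.2%) and the lowest WT share (14.7%) both came from uninjured muscle.

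The mean Hbb-bt share was 18.0 ± 2.99% in WT and 10.6 ± 1.47% in KO without injury, a difference of -7.47 percentage points, and 16.9 ± 0.936% against 9.60 ± 2.0% with injury, a difference of -7.34 (SD, n = 3 each). The exact two-sided permutation p was 0.1 in each state, the smallest possible. Leaving out any single library gave differences between -9.16 and -6.31 points uninjured and between -8.50 and -6.74 injured. Because the genotypes did not overlap, no such omission could change the sign. As a background, the ratio to Hbb-bs was lower in all 6 KO than in all 6 WT libraries for 0.843% of 12213 genes. Within a genotype, the injured and the uninjured libraries overlapped and differed by -1.10 points in WT and -0.97 in KO (exact permutation p of 0.6 and 0.5).

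The lowest WT value, in uninjured replicate 2, rested on 56 Hbb-bt reads, and its 95% Wilson interval ran from 11.5 to 18.6%, which reaches the KO values. In the other libraries Hbb-bt had 233 to 2099 reads. Intervals cover counting error only, and how the counting treated reads that match both genes is not given in the sources used here, so the absolute share is uncertain. The strains of WT and KO are not given either, and a difference in beta globin haplotype, or in how its reads map, cannot be told apart from genotype in the difference of this share.

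**Figure D5:**
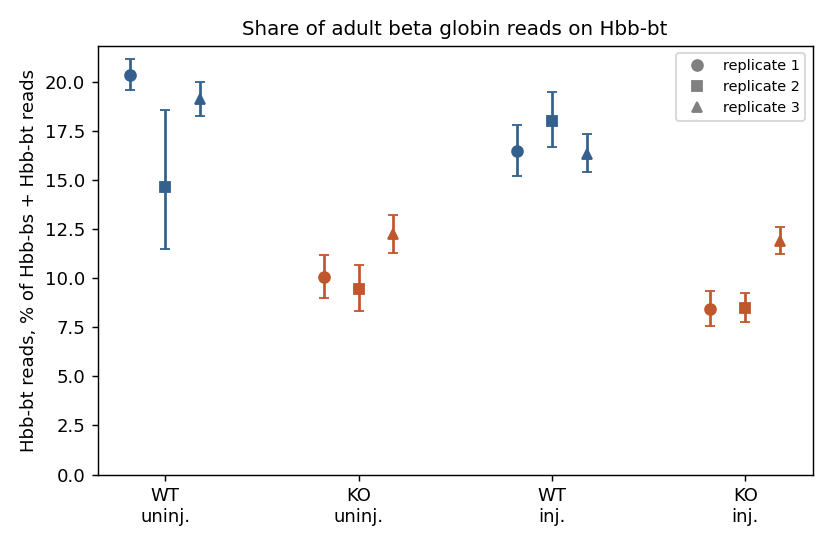
Hbb-bt reads as a percentage of Hbb-bs plus Hbb-bt reads (y axis, from 0) in each library by group (x axis), with 95% Wilson intervals for counting error. The 6 KO libraries (orange) lie between 8.41 and 12.2% and the 6 WT libraries (blue) between 14.7 and 20.4%.

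Hba-a2 took 38.5 to 41.8% of the alpha globin reads in the 12 libraries, a 1.08-fold range, while the level of Hba-a2 itself ranged 5.38-fold. Hba-a1 and Hba-a2 are near-identical copies, so their separate values are uncertain. In WT the 3 injured libraries (40.3 to 41.0%) were above the 3 uninjured ones (38.5 to 39.9%), a difference of 1.44 points (exact permutation p = 0.1). The 95% Wilson interval of uninjured replicate 2, on 96 Hba-a2 reads, ran from 33.4 to 45.6%. Those of uninjured replicate 3 (38.5 to 41.4%) and injured replicate 1 (38.4 to 42.2%) also overlapped, so counting error spans this gap. The ratio of alpha to beta reads ranged from 0.492 (KO injured replicate 3) to 1.04 (KO uninjured replicate 2). Its group means were 0.615 ± 0.0522 in WT and 0.796 ± 0.256 in KO without injury, and 0.619 ± 0.174 and 0.601 ± 0.177 with injury (SD, n = 3), with exact permutation p of 0.4 and 0.6 between the genotypes.

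Alas2 did not keep a fixed proportion to the globins. There were 4.23, 6.39 and 10.5 Alas2 reads per 1000 globin reads in uninjured WT and 7.89, 12.9 and 28.3 in uninjured KO. In injured muscle there were 4.52, 12.7 and 7.73 in WT and 16.9, 6.49 and 19.7 in KO. The groups overlapped in both states (exact permutation p of 0.2 and 0.3). KO replicate 3 had the highest proportion in both states. The proportion was lowest in the libraries with the highest globin sum of each genotype, at 4.23 (WT uninjured replicate 1) and 6.49 (KO injured replicate 2). Globin reads are its denominator, so a high globin sum by itself lowers it.

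Across the 12 libraries, the log2 levels of Hba-a1 and Hba-a2 had a Pearson r of 0.998, and those of Hbb-bs with the alpha globins of 0.92 to 0.93. Hbb-bt was less close, with an r of 0.82 to Hbb-bs and 0.70 to both alpha globins. The r of Alas2 with the 4 globins was between -0.05 and 0.17. These values describe libraries that share a total, and some may share an animal.

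By the rule of highest Pearson r with the mean of the 5 genes over 12 libraries, the genes most like them among 13332 were Sertad4, Il15, Tead2, Neurl3, Aldh3b1, S100a6, Itga10, Lpar1, Mt3, Ptpdc1, Aif1l, S100a4, C1qtnf2, Actb and AI413582, with r from 0.89 to 0.95. None is on a gene list used here. The most abundant were Actb, cytoplasmic beta actin, at 338 to 824 RPM, and S100a6, a calcium-binding protein, at 60.7 to 259 RPM. The best ranked gene of those lists was Emcn, an endothelial sialomucin, at rank 319 with an r of 0.76. Only 8 of the 15 were shared when Spearman's rho was used, and 5 without KO uninjured replicate 2.

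Other genes of the red cell lineage were at low levels. Of 17 erythroid genes in the tables, Sptb, Tmcc2 and Slc25a37 were at 1 RPM or more in every library. Sptb, the beta spectrin of the membrane skeleton that muscle also makes, was at 46.7 to 176.6 RPM and had an r of -0.80 with the mean of the 5 genes. The other 14 reached at most 2.68 RPM. That value was for Slc4a1, the band 3 anion exchanger of the red cell membrane, which was at 2.68 and 2.49 RPM in the uninjured and the injured library of KO number 2 and at most 0.45 RPM in the others. KO number 2 was also the highest of the KO numbers in globin sum in both states. Gata1 was detected at up to 0.17 RPM and Klf1 at up to 0.50 RPM, and Trim58 was at 0 in all 12 libraries. The 3 erythroid genes that were tested passed in no comparison, and their median change was 0.44 in uninjured and 0.37 in injured muscle (KO against WT). The estimates of Sptb (0.94 and 0.52) and Tmcc2 (0.44 and 0.37) were higher in KO, and those of Slc25a37 (-0.40 and -0.27) were lower. The r with the mean of the 5 genes was -0.65 for Tmcc2 and 0.54 for Slc25a37.

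Embryonic and other globin genes were at or near 0. Of 6 in the tables, Hbb-y had 0.04 RPM in 1 library and Hbq1a 0.04 and 0.03 RPM in 1 library each, and the others were at 0 throughout. Myoglobin (Mb), the oxygen-binding relative of the globins in muscle fibres, was at 446 to 2393 RPM. It was lowest in KO injured replicate 2, the library with the highest globin sum, and passed in no comparison.

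The haem synthesis and export list held 14 genes, all tested, and 0 passed in either direction in KO against WT. Their median change was -0.03 uninjured and 0.12 injured, against -0.18 and 0.01 for all genes. Alad, which joins 2 molecules of 5-aminolevulinate in the step after Alas1 and Alas2, was at 25.6, 25.5 and 28.8 RPM in uninjured WT and 53.0, 53.1 and 47.3 RPM in uninjured KO. In injured muscle it gave 30.4, 22.6 and 24.8 RPM in WT beside 48.5, 51.4 and 45.1 RPM in KO. All 6 KO libraries were above all 6 WT libraries, as for 1.6% of 12214 genes. Singly, KO libraries were above WT for 6.2% of genes in the uninjured state. The changes were 0.92 ± 0.25 and 0.88 ± 0.17, with limma adjusted p of 0.167 and 0.165. Alas1, the housekeeping synthase, was at 21.9 to 94.6 RPM with overlapping groups.

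Of 15 genes of haem breakdown and iron handling, 14 were tested and 0 passed in KO against WT. Their median change was -0.37 uninjured and 0.03 injured. Hmox1, haem oxygenase, which opens the haem ring, was at 9.08 to 12.2 RPM in injured WT and 7.14 to 8.32 RPM in injured KO without overlap, as for 8.63% of genes in that direction, with a limma adjusted p of 0.481. Aco1 of the same list separated the other way, at 16.7 to 17.9 RPM in injured WT and 19.7 to 31.5 RPM in injured KO. Such a rise occurred in 8.29% of genes, and its limma adjusted p was 0.467. In uninjured muscle Hmox1 and Aco1 overlapped. Blvra was at 22.5 to 24.6 RPM in uninjured WT and 7.01 to 21.2 RPM in uninjured KO (limma adjusted p = 0.439). Of 14 RNAs of reticulocytes, most of which muscle makes too, 13 were tested, 0 passed and the median change was -0.03 uninjured and 0.02 injured.

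Markers of other cells of blood and vessels were measured beside the globins. The summed level of 8 macrophage genes was 51.6 to 83.0 RPM in uninjured KO and 87.8 to 166 RPM in uninjured WT, and 79.2 to 98.7 against 99.3 to 147 RPM with injury, without overlap. Of all single genes tested, 15.5% uninjured and 8.63% injured had every KO library below every WT library. With injury the nearest sums were 98.7 (KO) and 99.3 RPM (WT). Of the macrophage genes, only Mrc1 and C1qb separated singly in that state. All 8 estimates were lower in KO in both states and 0 of 8 passed (limma). The 8 platelet genes summed to 6.97 to 9.78 RPM in uninjured KO and 12.2 to 26.8 RPM in uninjured WT, with 2 of them tested and 0 passed. Pf4, a platelet chemokine, made up most of that sum, at 5.75 to 6.85 RPM in KO and 6.91 to 20.2 RPM in WT. The lowest WT value of both the sum and Pf4 came from replicate 2, on 13 Pf4 reads. Every other platelet gene had at most 3 reads in that library, which is the detection floor. The gap between the genotypes therefore rests on few reads there. With injury the platelet sums overlapped, at 8.54 to 15.1 RPM in KO and 12.95 to 21.3 RPM in WT. The macrophage and platelet ranges move in the direction of Hbb-bt in uninjured muscle, and their part in its difference was not tested. The 11 neutrophil genes summed to 3.94 to 12.8 RPM in uninjured KO and 2.66 to 14.0 RPM in uninjured WT. The endothelial sums overlapped in uninjured muscle (329 to 377 RPM in KO, 321 to 434 RPM in WT) and 0 of 8 endothelial genes passed.

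Lymphocyte genes were also measured. The 6 B cell genes summed to 189 to 400 RPM in uninjured WT, 270 to 438 in uninjured KO, 192 to 495 in injured WT and 334 to 591 RPM in injured KO. The 6 T cell genes summed to 2.51 to 13.8, 0.725 to 5.51, 0.449 to 3.23 and 1.16 to 10.5 RPM in the same order. In the WT injury comparison, where the 5 estimates were negative, so were 4 of 5 tested B cell genes (median -0.76) and 3 of 3 tested T cell genes (median -0.68), and 0 passed. Ighd, the heavy chain of immunoglobulin D, was at 4.26 to 9.65 RPM in uninjured WT and 0.524 to 3.601 RPM in injured WT, a change of -1.79 (limma adjusted p = 1.0). It was at 0.468 to 5.59 RPM in uninjured KO, a change of -1.66 against uninjured WT (limma adjusted p = 0.2504). The part of these cells in the globin estimates was not tested.

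Binding of Flag-tagged Myf6 was measured by ChIP-seq in primary myotubes, with 1 library and 1 control, so there is no replicate. The peak list holds 12898 peaks, whose scores are the authors'. No peak summit lay within 50 kb of Hbb-bs, Hbb-bt or Alas2, the nearest being 82.2, 96.2 and 283.2 kb away. Near the alpha globin genes there were 3. The closest to Hba-a1, at chr11:32253237-32253417, was 30.3 kb away inside Nprl3 with a fold enrichment of 8.78. The other 2, at chr11:32316252-32316466 and chr11:32320674-32320979, lay 19.9 and 24.4 kb from Hba-a2, with fold enrichments of 11.1 and 14.2. Of 27025 gene start sites, 39.4% had a summit within 50 kb, so peaks at this distance are common.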

How the data were processed

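RNA was extracted with Trizol and made into TruSeq RNA v2 libraries, per the labels' protocols. Uninjured and injured libraries have a deposited table each, in RPM per gene, and every library sums to 1000000, per the file headers and the values. Columns of a WT over KO log2 fold change, its error, and p-values and q-values in these tables are also the authors'. HISAT2 2.1.0, featureCounts, SAMtools, DESeq2, Bowtie 1.1.0 and MACS2 2.1.0.20140616 and the builds mm10 and GRCm38.p5 are named in the submitters' processing notes, with no role for each. How strand and reads matching several genes were handled is not given in the sources used here. The deposited peak list gives each peak's signal at the summit, its fold enrichment and −log10 of both p-value and q-value, as deposited by the authors. The list is taken to be in mm10, whose chromosome coordinates GRCm38.p6 shares.

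Whole reads were recovered from the RPM steps. In every library 100% of the values tested, up to 200 reads, were whole within 0.1 read, which gave the depths. R 4.3.3 and limma 3.58.1 were used for each comparison on log2(RPM + 1), with eBayes and its trend option. Genes needed 1 RPM or more in 3 or more of the fitted libraries. P-values were two-sided and Benjamini-Hochberg adjusted over all genes tested, with a threshold of 0.05. KO against WT used its own 6 libraries, and injury and interaction used all 12. Changes on this scale understate those of low genes. edgeR 4.0.16 and DESeq2 1.42.0 on the recovered reads, other scalings, no filter, a pseudocount of 0.1, a replicate block and each library left out were alternatives. Single values had exact permutation tests (scipy 1.17.1). The limma and edgeR fits of KO against WT in both states and of injury in KO were tested on simulated data. The DESeq2 fits, the WT injury fit and the interaction fit were not. Genes named are the 5 genes, listed genes by level, test or absence, and the 15 most similar by correlation. In those lists, Ahsp, Hbb-b1 and Hbb-b2 were not analysed here. The 5 genes, the lists and the tests were chosen with earlier results of these data known.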

Additional observations from a re-analysis of the deposited data

How the results depend on the processing

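Of the 5 genes, the number passing in uninjured KO against WT went from 0 to 1, Hbb-bt, with DESeq2, with the replicate block and with mitochondrial genes left out of the scaling. It was 0 under every other alternative run and in every other comparison. The number of all genes passing in uninjured muscle was 35, and became 55 with edgeR, 663 with DESeq2, 122 with upper quartile scaling, 1 with no filter, 20 with a pseudocount of 0.1, 752 with the replicate block, 199 with that mitochondrial scaling (an alternative chosen after seeing the data) and 3 to 84 with 1 library left out. In injured muscle it was 34, and became 427 with DESeq2, 19 with no filter, 0 with the replicate block and 0 to 2343 with 1 library left out, the 2343 without KO injured replicate 2. For injury in KO it was 0, and 0 to 1 with 1 library left out. The cause was not tested.

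The replicate block used the replicate number. In KO against WT it joined libraries with different label numbers, a link that the labels do not give. The mean correlation of deviations between libraries of the same replicate number was 0.22 for KO against WT uninjured and -0.45 injured. For injury, where the label number was shared too, it was 0.02 in WT and 0.39 in KO. In no comparison was the correlation over 0.1 for every replicate number. Of the 6 libraries in each comparison, 5, 0, 2 and 4 in that order correlated best with the library of their own replicate number. The main fits did not pair libraries by number. For injury, the r of numbers 1, 2 and 3 was 0.28, -0.23 and 0.02 in WT and 0.02, 0.50 and 0.63 in KO. Between different numbers the mean was -0.01 in WT and -0.19 in KO. Deviations were taken from each group's mean, so this value largely follows from the same-number mean and is not a separate comparison. With so few numbers, these correlations cannot show whether a label number names an animal. With the block the Hbb-bt adjusted p in uninjured muscle was 0.0161 (limma).

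Directions changed only for estimates that passed no test. For KO against WT in injured muscle, Hba-a1 and Hba-a2 were 0.14 and 0.14 with edgeR and 0.15 and 0.14 with DESeq2. With 1 library left out they ranged from -0.68 to 0.47 and from -0.73 to 0.46, and Hbb-bs from -0.32 to 0.52. Alas2 in uninjured muscle ranged from -0.00083 to 0.63. For injury in KO, Hba-a1, Hba-a2 and Alas2 were -0.30, -0.26 and -0.32 with edgeR, -0.33, -0.28 and -0.34 with DESeq2 and -0.24, -0.24 and -0.15 with upper quartile scaling. With 1 library left out they ranged from -0.59 to 0.56, from -0.62 to 0.57 and from -0.31 to 0.31, and Hbb-bt from -0.055 to 0.75. The interaction ranged from -0.0019 to 1.15 (Hba-a1), from -0.12 to 1.07 (Hba-a2) and from -0.072 to 0.56 (Alas2). The alpha to beta ratio difference in injured muscle ranged from -0.12 to 0.082. The direction of the Hbb-bt share of beta reads could not change, because scaling does not alter it and the genotypes did not overlap. Depth limits Alas2 most, with 4 reads in WT uninjured replicate 2.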
